A study of Mus musculus with 6 samples.

Results

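AMP-activated protein kinase (AMPK) is the energy sensor of the cell. It is a heterotrimer of a catalytic alpha subunit, a scaffolding beta subunit and a gamma subunit that binds adenine nucleotides, and it becomes active when AMP and ADP build up and an upstream kinase phosphorylates the activation loop of the alpha subunit. In fat cells active AMPK is known for switching off fatty acid and sterol synthesis. The genes described here are 10 of the 45706 genes in the count table and were chosen by name. Of these, 6 encode AMPK subunits, namely Prkaa1 and Prkaa2 (alpha1 and alpha2), Prkab1 and Prkab2 (beta1 and beta2) and Prkag1 and Prkag2 (gamma1 and gamma2). The other 4 encode the upstream side: Stk11, the kinase LKB1, with its partners Strada, a pseudokinase, and Cab39, the scaffold MO25 alpha, and Camkk2, a calcium-dependent kinase that phosphorylates the same loop.

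The study sequenced total RNA from 3T3-L1 cells, a mouse embryonic fibroblast line that turns into fat cells in culture, on day 7 after an adipogenic cocktail of IBMX, insulin, dexamethasone and rosiglitazone. All cells carried a lentiviral short hairpin RNA. In 3 cultures it was a scrambled sequence (scrambled control, genotype given as WT), and in 3 it targeted Rbms1, which encodes an RNA-binding protein (RBMS1 knockdown, genotype given as RBMS1KD). The study's methods describe stable knockdown cells selected with puromycin and 3 biological replicates per group, and no separate transductions or clones. If the replicates are cultures of 1 transduced line per hairpin, the spread between them is that of cultures, and a difference between the lines cannot be told apart from an effect of the hairpin.

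Total estimated counts ranged from 3142695 in control replicate 2 to 11073098 in knockdown replicate 3, and nuclear and mitochondrial ribosomal RNA genes took from 8.12% to 43% of them, most in control replicate 2. Levels below are in CPM, counts divided by the library total and scaled between libraries by TMM factors. Rbms1 itself was at 113, 102 and 99.6 CPM in the controls and at 49.2, 61.4 and 84.0 CPM in the knockdown samples, so its groups did not overlap. Its log2 fold change (RBMS1 knockdown minus scrambled control, as throughout) was -0.69 with an SE of 0.20. The adjusted p was 0.185 (edgeR, quasi-likelihood F-test, Benjamini-Hochberg over all genes tested) and missed the threshold of 0.1 used here. With 1 sample left out the log2 fold change ran from -0.52 without knockdown replicate 1 (adjusted p = 0.155) to -0.92 without knockdown replicate 3 (adjusted p = 0.0708), and with library sizes alone it was -0.31 (adjusted p = 0.572). The study reports the knockdown at the protein level, by immunoblot, which these counts do not measure. The labels give the cell type as fibroblast, and the libraries held adipocyte genes: the 8 adipocyte markers Adipoq, Fabp4, Plin1, Pparg, Cebpa, Lpl, Cd36 and Cidec summed to between 20360 and 23590 CPM in the controls. In the knockdown samples the same sum was 19520, 11140 and 13190 CPM, with replicate 1 next to the controls. Lpl had the largest part in that sum, at 12280, 11960 and 14510 CPM in the controls and 10210, 5350 and 5595 CPM in the knockdown samples. Cd36 lay on the opposite side, at 788, 667 and 613 CPM in the controls and 1299, 900.0 and 1204 CPM in the knockdown samples. Adipoq was at 2493, 1056 and 2296 CPM in the knockdown samples. Only replicate 2 lay outside its control range, from 2109 to 2649 CPM. The 7 fibroblast or preadipocyte markers summed to between 6047 and 7078 CPM in the controls and to 3204, 6719 and 5900 CPM in the knockdown samples, with replicate 1 the lowest of all libraries. Macrophage, endothelial and skeletal muscle markers summed to at most 5.68 CPM per list in any library, and Ptprc, Adgre1, Kdr, Ckm, Myod1 and Myog were listed at 0 in all 6. In such bulk samples, fewer cells of a type and less RNA per cell cannot be told apart.

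All 10 genes were detected in every library, with the lowest count being 24 (Prkab1 in control replicate 2) and the highest 1262 (Prkaa1 in knockdown replicate 3), and all 10 passed the filter on low counts. None of the 10 reached the adjusted p threshold in edgeR, against 140 of the 11440 tested genes (1.22%). At an unadjusted p under 0.05 there were 2 of 10, Prkag2 lower and Cab39 higher in the knockdown samples, against a background of 12.4%. This count was 0 without control replicate 2 or without control replicate 3, 1 with DESeq2, with a replicate block, with chromosome medians removed and without control replicate 1 or knockdown replicate 3, and 5 with library sizes alone. The same 2 genes were the ones whose control and knockdown values did not overlap, against a background of 18.5%. DESeq2, which called 3.2% of the genes it tested, and limma-voom, which called 1.01%, also called none of the 10. Of the 10 log2 fold changes, 7 were above 0 and 3 below, with a median of 0.18, beside a median of 0.00 and 50.4% above 0 over all tested genes.

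**Figure D1:**
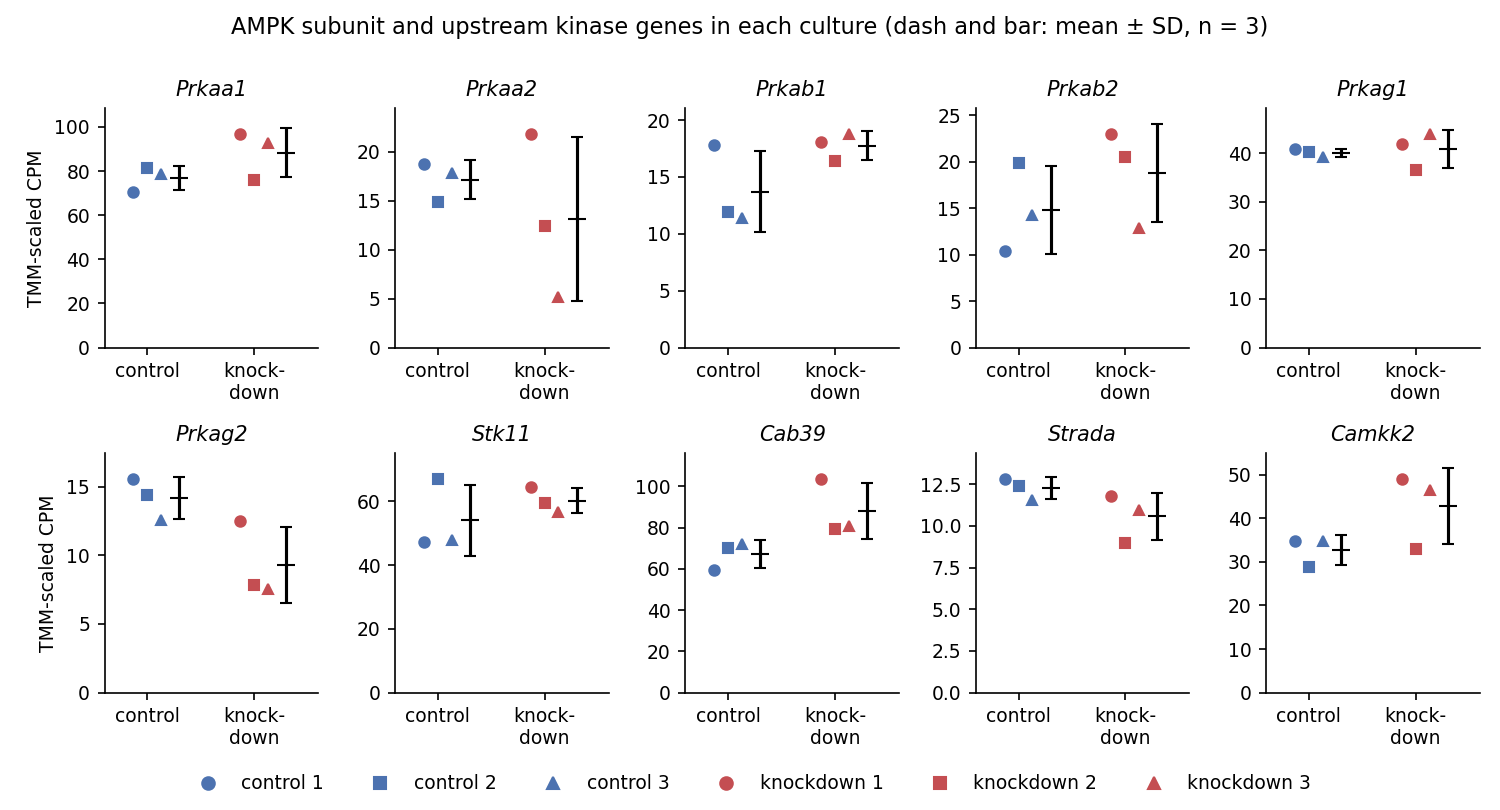
TMM-scaled CPM of the 10 genes in each of the 6 cultures, with scrambled control in blue, RBMS1 knockdown in red, 1 symbol per replicate number and the mean ± SD (n = 3) beside each group. Prkag2 and Cab39 are the panels in which the groups do not overlap, and the Prkaa2 knockdown group runs from 5.14 to 21.9 CPM, with an SD of 8.38 around a mean of 13.1 CPM.

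The alpha subunits were represented mainly by Prkaa1. This gene (ENSMUSG00000050697, chr15:5143861-5181899 on the plus strand, GRCm38) was at 70.7, 81.4 and 78.5 CPM in the controls and at 96.9, 75.8 and 92.6 CPM in the knockdown samples. Knockdown replicate 2 lay inside the control range and the other two above it. The log2 fold change was 0.20 with a 95% interval from -0.14 to 0.55 and an adjusted p of 0.647 by edgeR, so a level of up to 1.46-fold or down to 0.91 of the control lay within the interval. The log2 fold change was 0.14 without knockdown replicate 1 and 0.32 without knockdown replicate 2.

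Prkaa2, the alpha2 gene that is known as the main catalytic form of skeletal muscle and heart, lies on chr4:105029874-105109890 (minus strand). Its controls were close together at 18.8, 14.9 and 17.9 CPM, while the knockdown samples were spread over 21.9, 12.4 and 5.14 CPM. Knockdown replicate 1 was above all controls and the other 2 were below all of them, and the lowest value rested on 70 counts in the deepest library. The log2 fold change was -0.41 (95% interval from -1.37 to 0.56, adjusted p = 0.756 by edgeR). It came to -0.98 without knockdown replicate 1, with an adjusted p of 0.182, and to -0.01 without knockdown replicate 3. With limma-voom on all 6 samples it was -0.83 (adjusted p = 0.545). These 3 libraries also differed in the adipocyte and fibroblast marker sums given above, with knockdown replicate 1 apart from the other two, and the part of this in Prkaa2 was not tested.

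The beta genes were closer to each other in level. Prkab1 (chr5:116013586-116024508, minus strand) was at 17.8, 11.9 and 11.4 CPM in the controls and at 18.1, 16.4 and 18.8 CPM in the knockdown samples, where control replicate 1 fell among the knockdown values. Its log2 fold change was 0.37 with an SE of 0.23 and an adjusted p of 0.562 by edgeR, and it ran from 0.24 to 0.62 with 1 sample left out. Prkab2 (chr3:97658193-97673812, plus strand) was at 10.4, 19.9 and 14.3 CPM in the controls and at 23.0, 20.5 and 12.9 CPM in the knockdown samples. The groups overlapped, with the lowest value a control and the 2 highest from the knockdown samples, and the log2 fold change was 0.36 with an SE of 0.30 and an adjusted p of 0.682, running from 0.15 to 0.59 with 1 sample left out. The beta subunit tethers the complex together and carries the glycogen-binding domain.

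Of the gamma genes, Prkag1 had the smallest spread over the 6 samples, relative to its mean, of all 10 genes. It lies on chr15:98812797-98831521 (minus strand), and its values were 40.9, 40.2 and 39.2 CPM in the controls and 42.0, 36.6 and 44.0 CPM in the knockdown samples. Its log2 fold change of 0.03 had a 95% interval from -0.32 to 0.37, which spans 0.80-fold to 1.29-fold, and its sign turned when knockdown replicate 3 was left out.

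Prkag2 (chr5:24862744-25100642, minus strand) had the largest log2 fold change of the 10 in the edgeR fit of all samples. It encodes gamma2, the subunit in which inherited variants are known to cause a glycogen storage disease of the heart. It was at 15.6, 14.4 and 12.6 CPM in the controls and at 12.5, 7.83 and 7.56 CPM in the knockdown samples. The groups did not overlap, but knockdown replicate 1 lay just under the lowest control. The log2 fold change was -0.61 with an SE of 0.26, an unadjusted p of 0.0441 and an adjusted p of 0.388 by edgeR, and the counts behind it were between 29 and 103 per library. Without knockdown replicate 1 it was -0.87 with an adjusted p of 0.112, and over all the alternative settings the adjusted p ran from 0.112 to 0.682. The RefSeq promoter table used here holds 3 windows for this gene and 1 for each of the other 9, and counts per gene do not tell transcripts from different promoters apart.

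Stk11 (chr10:80115803-80130682, plus strand) encodes LKB1, the kinase that activates AMPK at low energy. It was at 47.1, 67.0 and 47.8 CPM in the controls and at 64.5, 59.6 and 56.5 CPM in the knockdown samples. The high control, replicate 2, was the shallow library with the large ribosomal RNA share. The log2 fold change was 0.16 with an SE of 0.18 (adjusted p = 0.763 by edgeR), and it was 0.34 without that library and 0.079 without control replicate 1.

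Cab39 (chr1:85793441-85851576, plus strand) encodes the scaffold that holds LKB1 and STRAD in the active complex. It was at 59.5, 70.0 and 72.1 CPM in the controls and at 104, 79.1 and 81.0 CPM in the knockdown samples. All 3 knockdown values were above all controls. The log2 fold change was 0.39 with an SE of 0.17, an unadjusted p of 0.042 and an adjusted p of 0.379 by edgeR. Cab39 lies on chromosome 1, whose 675 tested genes centred on a log2 fold change of 0.25 (median), 78.4% of them above 0. With each sample's median deviation removed per chromosome, the log2 fold change of Cab39 was 0.14 with an adjusted p of 0.837. The medians of the chromosomes that hold the other 9 genes were between -0.13 and 0.07.

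Strada, the pseudokinase that binds and activates LKB1, was at 12.8, 12.4 and 11.5 CPM in the controls and at 11.8, 9.001 and 10.9 CPM in the knockdown samples. These ranges overlapped, with a log2 fold change of -0.21, an SE of 0.22 and an adjusted p of 0.753 by edgeR. Without knockdown replicate 2 the log2 fold change was -0.09. The gene (chr11:106163330-106202168, minus strand) shares 158 exonic bases with Ccdc47 on the same strand, which had 4660 counts in all against 480 for Strada. It was the only one of the 10 with estimated counts that were not whole within 0.01, in 5 of 6 samples, and its values are given as uncertain. The source of the fractions was not tested. Stk11 shares 232 exonic bases with Cbarp on the opposite strand, which had 274 counts in all against 2436. Prkag2 shares 795 with Prkag2os2 on the opposite strand, which had 18 counts in all against 456. Strada also shares 144 with Gm25556 on the same strand (6 counts). Prkag1 shares 950 with B130046B21Rik, Prkag2 142 with Prkag2os1 and Prkab2 9 with Gm17651, all opposite-strand genes listed at 0 counts.

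Camkk2 (chr5:122731170-122779409, minus strand) was at 34.8, 28.8 and 34.8 CPM in the controls and at 49.0, 32.9 and 46.4 CPM in the knockdown samples. Knockdown replicate 2 fell inside the control range and the other 2 lay above it. The log2 fold change was 0.38 with an SE of 0.19, an unadjusted p of 0.0811 and an adjusted p of 0.473 by edgeR. Across the 10 genes, knockdown replicate 1 was above all controls in 7, replicate 3 in 5 and replicate 2 in 2, and they were below all controls in 1, 3 and 4. Over all tested genes the same 3 libraries, in that order, were above all controls in 29.0%, 28.7% and 28.2% of genes and below all controls in 29.6%, 28.8% and 28.4%.

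**Figure D2:**
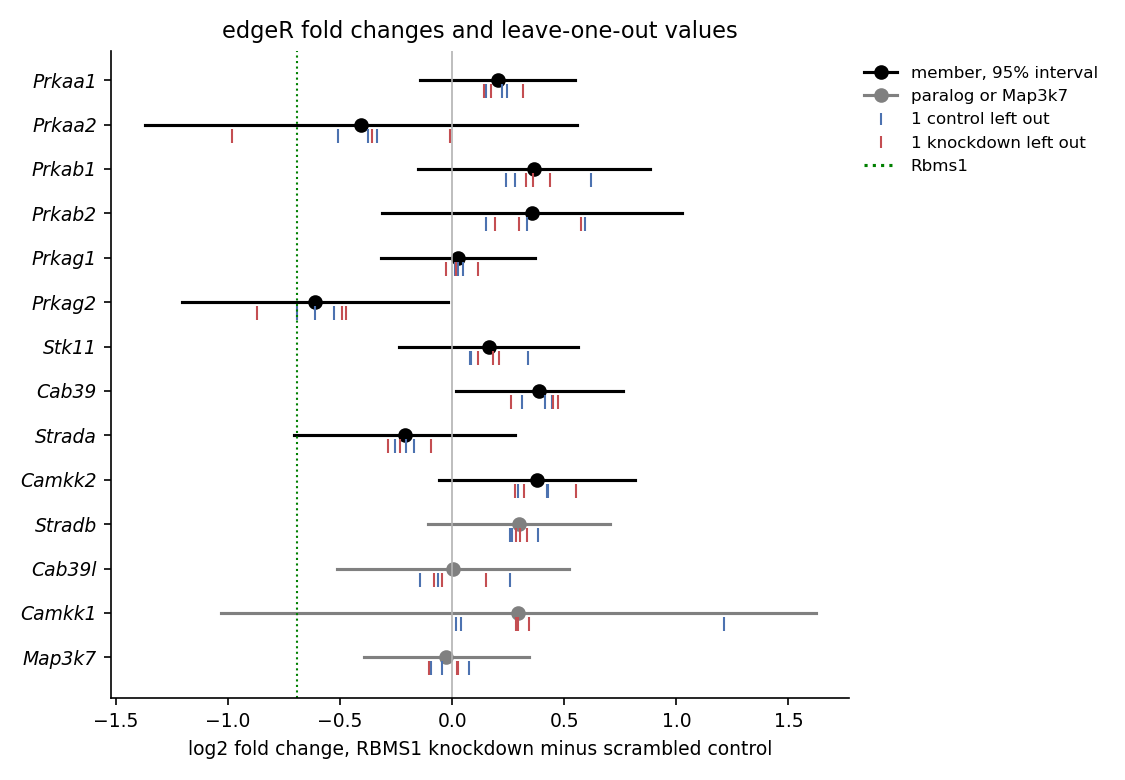
log2 fold change (RBMS1 knockdown minus scrambled control) of the 10 genes in black and of Stradb, Cab39l, Camkk1 and Map3k7 in grey, with 95% intervals from the edgeR fit; ticks under each point give the fold change with 1 control (blue) or 1 knockdown sample (red) left out, and the dotted line marks Rbms1. The Prkaa2 ticks reach from -0.98 to -0.01, while those of Prkag2 stay between -0.87 and -0.47.

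The 5 relatives outside the 10 genes were read alongside them. Stradb and Cab39l, paralogs of Strada and Cab39, had log2 fold changes of 0.30 (SE 0.18) and 0.00 (SE 0.23). With the chromosome medians removed Stradb was at 0.05. Camkk1, the paralog of Camkk2, had only 1 to 30 counts per library. Map3k7, which encodes TAK1, a kinase also reported to act on AMPK, was at 41.7, 45.2 and 52.5 CPM in the controls and 50.9, 43.5 and 42.7 CPM in the knockdown samples. None of these 4 passed the test in edgeR, with adjusted p from 0.543 to 0.996. Prkag3, the gamma3 gene that is known from fast skeletal muscle, had 0 counts in each control, where 3 counts would correspond to between 0.481 and 1.49 CPM, and had 1, 12 and 13 counts in the knockdown samples. It did not pass the filter, and the fits that did test it gave adjusted p of 0.36 (DESeq2) and 0.333 (edgeR with no filter). Like Cab39 and Stradb, it lies on chromosome 1.

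To compare levels between genes, CPM were divided by the length of the merged exons in kilobases. On this scale Prkag1 (18.6 ± 1.15, SD over 6 samples) and Prkaa1 (17.8 ± 2.18 CPM per kb) were the highest of the 10 and overlapped each other. Stk11 (12.5 ± 1.82) and Cab39 (10.96 ± 2.11) came next, also overlapping, and both lay below every Prkaa1 value. Prkab1 (5.13 ± 1.07), Camkk2 (3.46 ± 0.737) and Prkab2 (3.30 ± 0.976) followed, and Strada (2.05 ± 0.243), Prkaa2 (1.901 ± 0.739) and Prkag2 (1.81 ± 0.514) were the lowest. From Prkab1 down to Prkag2 each gene overlapped the next in the order, so neighbours are not resolved, while the lowest Prkab1 value (3.70) was above every Strada, Prkaa2 and Prkag2 value. Prkag1 stood above 84.7% of the tested genes and Prkag2 above 21.6%. With the longest transcript as the length, Cab39 came to 20.4 CPM per kb, above Prkaa1, and Camkk2 to 7.77. Prkag2 (3.52) and Strada (3.37) then lay just above Prkab2 (3.36), while Prkaa2 was at 1.901. All these places therefore depend on which transcript is counted.

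**Figure D3:**
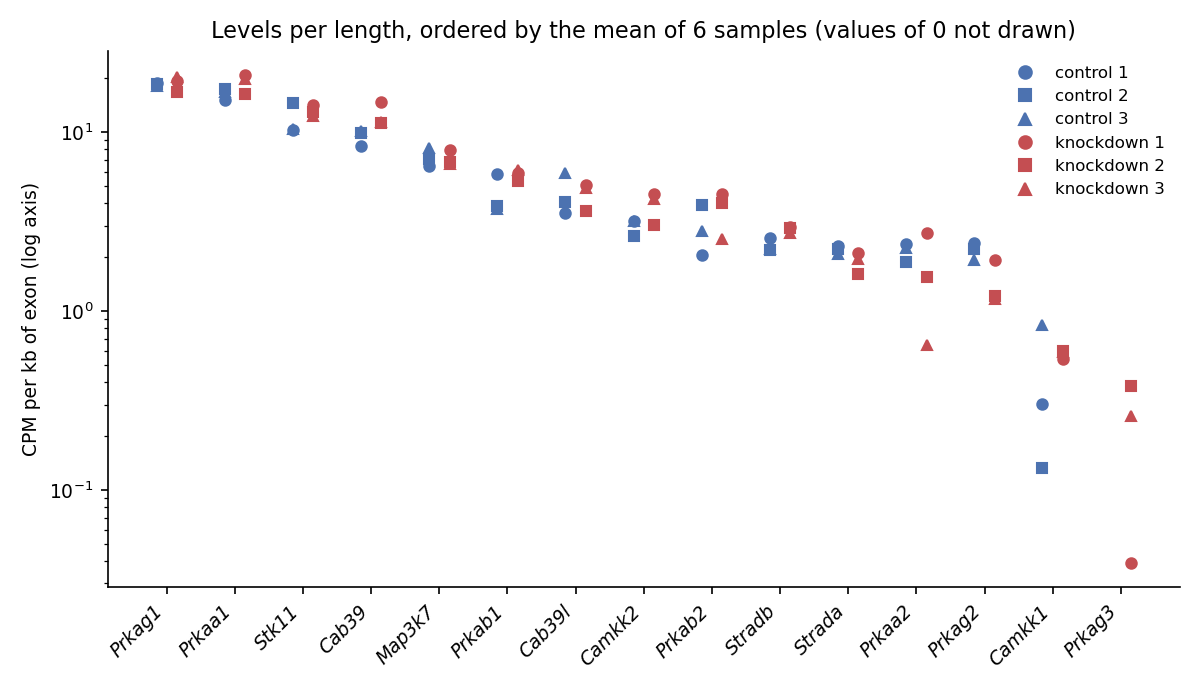
CPM per kb of merged exon length of the 10 genes, Prkag3, Stradb, Cab39l, Camkk1 and Map3k7 on a log axis, 1 point per culture, ordered by the mean of the 6 samples; values of 0 (Prkag3 in the controls) are not drawn. Prkag1 and Prkaa1 are highest, with means of 18.6 and 17.8 CPM per kb, and the less expressed alpha and gamma genes, Prkaa2 and Prkag2, lie near 2 CPM per kb.

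Summed per kind of subunit, the beta genes were the scarcest transcripts of the heterotrimer. The beta sum was 8.43 ± 1.37 CPM per kb (SD over 6 samples), against 19.7 ± 2.20 for alpha and 20.5 ± 1.19 for gamma, and the highest beta value (10.4) was below the lowest alpha value (17.5). The ratio of beta to alpha was between 0.341 and 0.525 in the 6 samples, and with the longest transcript as length it was between 0.434 and 0.669. The beta sum was 7.85, 7.78 and 6.51 CPM per kb in the controls and 10.4, 9.35 and 8.65 CPM per kb in the knockdown samples. These groups did not overlap, with a difference of 0.36 on the log2 scale, although neither beta gene alone separated them. Without length correction the groups overlapped, with the beta sum at 31.8 CPM in control replicate 2 and 31.6 CPM in knockdown replicate 3. The alpha sum differed by 0.14 and the gamma sum by -0.02 on the log2 scale, with overlapping groups. The alpha difference ran from 0.038 without knockdown replicate 1 to 0.24 without knockdown replicate 2. The smallest two-sided p of an exact permutation test of 3 samples against 3 is 0.1, so no difference in a sum or a share could reach 0.05.

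The share of each kind of subunit taken by its main gene does not depend on the scaling between libraries. Prkaa1 took 88.4% ± 1.89 of the alpha level in the controls and 92.2% ± 4.32 in the knockdown samples (SD, n = 3), where replicate 3 reached 96.9%. The difference of 3.78 percentage points had an exact permutation p of 0.2, and it was 1.43 points without knockdown replicate 3 and 5.68 points without knockdown replicate 1. Prkag1 took 88.7%, 89.3% and 90.3% of the gamma level in the controls and 90.7%, 91.4% and 93.4% in the knockdown samples. Its groups did not overlap, with a difference of 2.42 points and an exact permutation p of 0.1, the smallest possible. The size of this difference depends on the lengths used, and was 3.77 points with the longest transcript and 6.21 points without length correction. Prkab1 took 60.3% ± 12.4 and 61.5% ± 8.07 of the beta level, with a range over all samples from 49.9% to 74.0% and no separation of the groups (exact permutation p = 0.9).

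For the upstream genes, 3 further shares were added after seeing the data. Strada took 47.3%, 50.4% and 48.2% of the summed Strada and Stradb level in the controls and 41.8%, 35.7% and 41.7% in the knockdown samples. The groups did not overlap, and the difference was -8.92 points with an exact permutation p of 0.1, again the smallest possible. Stradb lies on chromosome 1, and its log2 fold change without the chromosome median is given above. The reservation about Strada counts applies. Cab39 took 68.2% ± 4.25 of the Cab39 and Cab39l level in the controls and 73.3% ± 2.72 in the knockdown samples (exact permutation p = 0.3), and the difference of 5.13 points was 2.68 points without control replicate 3. Camkk2 took 88.6% ± 8.30 and 86.8% ± 3.01 of the Camkk1 and Camkk2 level (exact permutation p = 0.8). Adjusted over the 6 shares by Benjamini-Hochberg, these exact permutation p-values were between 0.3 and 0.9.

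**Figure D4:**
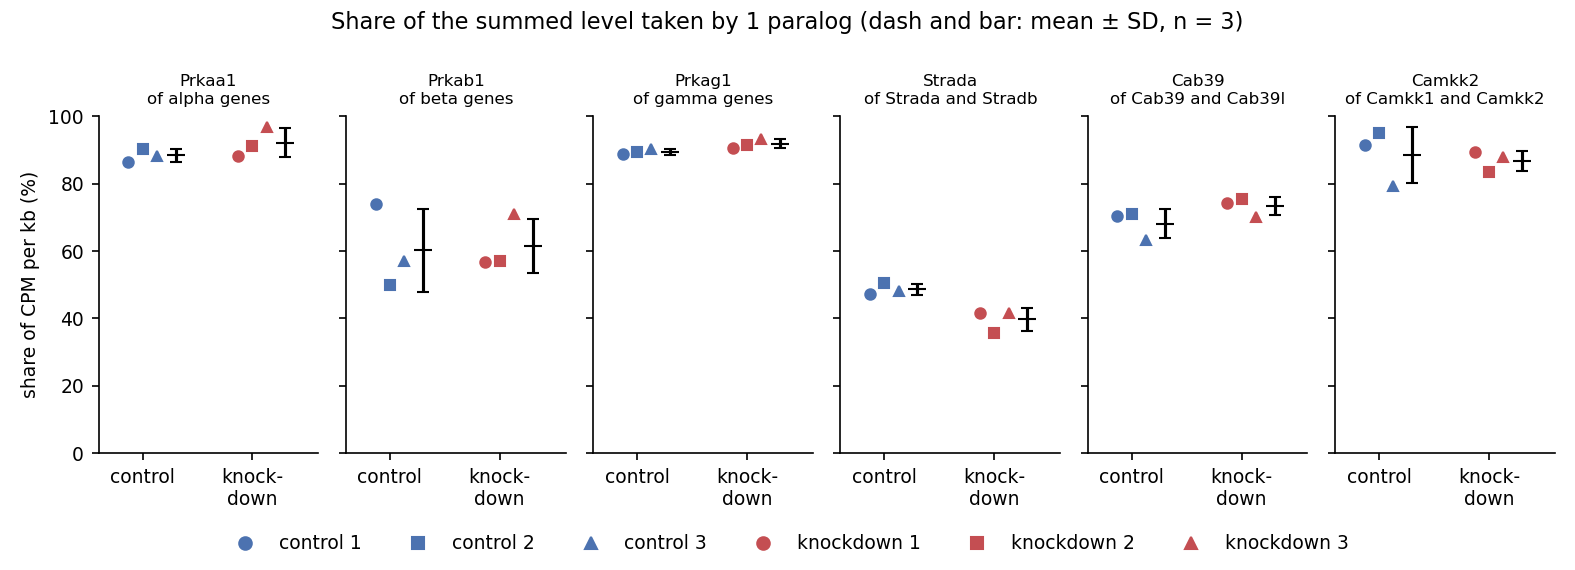
Share of the summed CPM per kb of a paralog group taken by 1 gene, in percent, for each culture, with the mean ± SD (n = 3) beside each group; the axis runs from 0 to 100%. Prkaa1 and Prkag1 took at least 86.6% in every sample, Prkab1 varied from 49.9% to 74.0%, and the Strada panel is the one with the largest difference between the groups, -8.92 percentage points.

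The study reports AMPK signaling among the main pathways of its differentially expressed genes, from a pathway analysis that was not repeated here. The surrounding genes were read in 5 lists with 79 genes in all, of which 74 were tested. None was called by edgeR, beside 1.22% of all tested genes. An unadjusted p under 0.05 was found for 8 (background 12.4%), of which 2 were higher and 6 lower in the knockdown samples. The 2 higher were Pikfyve and Ak5, and Ak5 passed the filter on low counts through the knockdown samples alone. Among the pathway genes DESeq2 called 2, Pikfyve and Ppargc1a, beside 3.2% of all genes it tested. With no filter on low counts edgeR called Pikfyve alone, beside 1.38%. Without knockdown replicate 1, edgeR called 10, among them Acaca, Lipe, Pikfyve, Ppargc1a, Sik2 and Srebf1, and 696 of the 11724 genes tested in that fit were called (5.94%). The adipocyte marker sum of the 2 remaining knockdown samples was 11140 and 13190 CPM, and its part in these calls was not tested.

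Of the 28 direct AMPK substrates, all tested, 11 were above 0 and 17 below, with a median log2 fold change of -0.14. Over all tested genes 50.4% were above 0. An unadjusted p under 0.05 was found for 6 substrates (background 12.4%), and 8 had groups that did not overlap (background 18.5%). Of these 8, 2 were higher and 6 lower in the knockdown samples. Pikfyve, a lipid kinase of endosomes, was at 95.4, 105 and 99.8 CPM in the controls and at 164, 157 and 141 CPM in the knockdown samples, with no overlap. Its log2 fold change was 0.62 with an SE of 0.14 and an adjusted p of 0.108 by edgeR and 0.0136 by DESeq2. It lies on chromosome 1, and with the chromosome medians removed its log2 fold change was 0.37 and its adjusted p 0.387.

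Ppargc1a, the coactivator PGC-1 alpha of mitochondrial biogenesis, was at 17.3, 22.8 and 13.3 CPM in the controls and at 9.34, 9.24 and 6.31 CPM in the knockdown samples. All 3 knockdown values were below all controls, with a log2 fold change of -1.09, an SE of 0.27 and an adjusted p of 0.14 by edgeR and 0.0596 by DESeq2. Mlxipl, the carbohydrate-response factor ChREBP, was at 38.2, 47.2 and 27.2 CPM in the controls and at 20.99, 24.0 and 7.49 CPM in the knockdown samples. Its groups were also apart, with a log2 fold change of -1.10, an SE of 0.39 and an adjusted p of 0.283 by edgeR. Acaca, which encodes the acetyl-CoA carboxylase that is the textbook AMPK substrate, was at 646, 642 and 716 CPM in the controls and at 678, 353 and 344 CPM in the knockdown samples. Knockdown replicate 1 lay among the controls and the other 2 below all of them. The edgeR log2 fold change was -0.54 with all samples (adjusted p = 0.445) and -0.93 without that replicate (adjusted p = 0.015). Acacb, of the same list, was at 0.25 with all samples (adjusted p = 0.73 by edgeR) and at -0.09 without knockdown replicate 1.

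Of the 12 AMPK-related kinases that LKB1 also activates, 11 were tested, with a median log2 fold change of -0.13. Sik2, a salt-inducible kinase abundant in fat cells, was at 258, 257 and 280 CPM in the controls and at 229, 170 and 163 CPM in the knockdown samples. Its groups did not overlap, and the log2 fold change was -0.50 with an SE of 0.17 and an adjusted p of 0.265 by edgeR. Mark2 and Sik1 had log2 fold changes of 0.27 and 0.22, with adjusted p of 0.499 and 0.632.

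Of the 16 phosphatases and regulators of AMPK, 14 were tested, 9 of them above 0, with a median log2 fold change of 0.06 and none at an unadjusted p under 0.05. The largest of the named differences were in Fnip2 (0.30) and Flcn (0.24), which encode the folliculin complex, and Ppp2r1a, a protein phosphatase 2A scaffold, was at -0.12. In adenylate metabolism 14 of 16 genes were tested, with a median of -0.06. Ak5, an adenylate kinase, had 1, 1 and 3 counts in the controls and 11, 23 and 25 in the knockdown samples, so that it passed the filter on low counts through the knockdown samples alone, and its edgeR log2 fold change of 2.44 (SE 0.71, adjusted p = 0.164) supports no more than these counts. Adss, of AMP synthesis, was at 0.43 with an adjusted p of 0.438, and lies on chromosome 1. With the chromosome medians removed it was at 0.18. Aprt, of adenine salvage, was at -0.47 with an adjusted p of 0.485, and lies on chromosome 8, where the 624 tested genes had a median of -0.38, and it was at -0.07 (adjusted p = 0.958) with the chromosome medians removed. The 9 genes of the mTORC1 and TSC list, which AMPK restrains or acts through, had a median of -0.03, with Deptor at -0.41 (adjusted p = 0.416), Tsc1 at 0.26 and Rptor at -0.18.

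**Figure D5:**
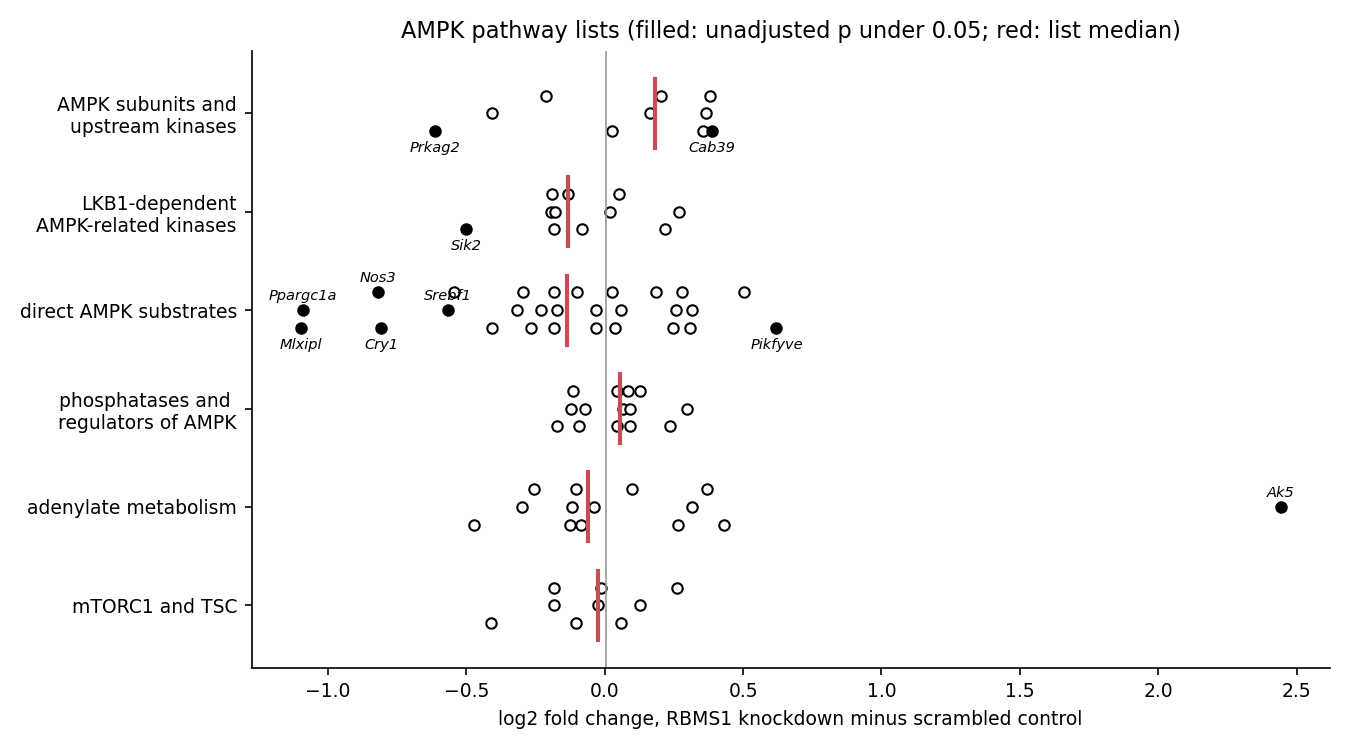
log2 fold change (RBMS1 knockdown minus scrambled control) of each tested gene in the set of 10 and in the 5 pathway lists; filled circles with names have an unadjusted p under 0.05 in edgeR, red bars are list medians and the grey line is the median of all tested genes. The list medians lie between -0.14 and 0.18, and of the 8 filled circles in the pathway lists 6 are below 0. Ak5, above 0, passed the filter on low counts through the knockdown samples alone. Nos3, Cry1 and Srebf1 are named for their unadjusted p after their values were seen.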

How the data were processed

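RNA from 6 cultures was sequenced as ribosomal RNA-depleted stranded libraries. According to the submitters' processing notes the authors used Trim Galore 0.6.7, STAR 2.7.10a and Salmon 1.9.0 with GRCm38, and deposited estimated counts per gene without normalization. The annotation release and the strand setting are not given in the sources used here. Here the estimated counts were rounded and fitted on the whole table with edgeR 4.0.16 in R 4.3.3 (filterByExpr, TMM, glmQLFit with legacy = FALSE, condition alone). A gene was called at an adjusted p of 0.1 or less, after Benjamini-Hochberg adjustment over 11440 tested genes. DESeq2 1.42.0 and limma-voom (limma 3.58.1) were alternatives. SEs came from the F statistic and intervals from the t distribution. Positions and lengths came from GENCODE M21. The script was tested on simulated data. The 10 genes, lists and tests were chosen with earlier results of these data known. Named are the 10 genes, Rbms1, 5 relatives and, per pathway list, called genes and the 3 with the smallest p. Acaca, Acacb, Nos3, Cry1, Srebf1, Ak4 and the genes called in 1 alternative fall outside that rule and were added with their values in view. The depth of each library limits precision, and intervals cover the spread between cultures of 3 per group.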

Additional observations from a re-analysis of the deposited data

How the results depend on the processing

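None of the 10 genes was called in any of the 17 alternatives (DESeq2, limma-voom, RLE size factors, library sizes alone, library sizes without ribosomal RNA genes, no filter, a filter of 1 CPM or more in 3 samples, counts left unrounded, a replicate block, each of 6 samples left out and, added after seeing the data, the earlier quasi-likelihood estimates and chromosome medians removed). Of their 170 alternative fold changes 168 kept their sign. Strada came to 0.16 with library sizes alone, a setting that moved the median of all genes to 0.37, and Prkag1 ranged from -0.025 to 0.11 with 1 sample left out. With library sizes alone Map3k7 came to 0.35, Ppp2r1a to 0.25, Rptor to 0.20, the alpha sum to 0.55, the beta sum to 0.77 and the gamma sum to 0.39, while Prkaa2 came to -0.09 and Prkag2 to -0.25, and Cab39l was at -0.00086 with the earlier estimates. With 1 sample left out, Cab39l ranged from -0.14 to 0.26, Map3k7 from -0.10 to 0.075, the gamma sum from -0.059 to 0.057, the Prkab1 share difference from -3.90 to 8.11 points and the Camkk2 share difference from -6.44 to 1.51 points. In the same fits Mlxipl ranged from -1.39 to -0.73, Aprt from -0.58 to -0.26, Sik1 from 0.12 to 0.36 and Tsc1 from 0.15 to 0.44. Calls among pathway genes were 2 with DESeq2 and 1 with no filter, beside 3.2% and 1.38% of all genes tested in those fits. With 1 sample left out they were 0 to 10, the 10 without knockdown replicate 1, where 5.94% of all tested genes were called. Without length correction the mean shares were 84.6% (Prkaa1), 48.8% (Prkab1), 77.1% (Prkag1), 37.9% (Strada) and 95.4% (Camkk2), and with the longest transcript 69.0% (Prkab1), 87.0% (Prkag1), 35.6% (Strada) and 94.0% (Camkk2). Replicate numbers pair no samples by the labels. The per-gene deviations of same-numbered samples from the means of their groups correlated at -0.15, 0.09 and -0.03. With the replicate block edgeR called 0 of the 10 genes, 0 pathway genes and 39 genes in all (for shares and sums a block cannot move the difference). Counts under 30 per library in the shallowest control limit Prkab1, Prkag2 and Strada.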

Other observations

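Ak4, which encodes an adenylate kinase of the mitochondrial matrix, was at 37.0, 24.3 and 31.1 CPM in the controls and at 47.4, 23.6 and 4.85 CPM in the knockdown samples. As with Prkaa2, knockdown replicate 1 was the highest and replicate 3 the lowest of all 6 libraries. Both genes lie on chromosome 4, and Ak4 was chosen after its values were seen. Its log2 fold change was -0.30 with an SE of 0.60 and an adjusted p of 0.884 by edgeR, and it ranged from -1.13 to 0.20 with 1 sample left out.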
